A study of Homo sapiens with 6 samples.

Results

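The genes described here are the 77 that encode the proteins of the human cytosolic ribosome. They were chosen from the 58735 genes of the count table by name and biotype: protein-coding genes named RPL or RPS with a number and at most an A or X, together with RPLP0, RPLP1, RPLP2 and RPSA. The rule gives 31 genes of the small (40S) subunit and 46 of the large (60S) subunit, and leaves out FAU and the paralogs whose names end in L or L1, which are given further on. The libraries are 3 of cells transfected with an siRNA against SON (siSON) and 3 of cells transfected with a scramble siRNA (siControl). All 6 came from RPE-1 cells, an established human retinal pigment epithelial line, in which centrioles are marked by CETN2 tagged with GFP. The line also carries PLK4, the centriole duplication kinase, behind a promoter that rtTA activates when doxycycline is given, and both groups received 1 µg/mL doxycycline, so the controls carry that induction too. SON is a splicing factor of nuclear speckles, and the comparison asks how mRNA abundance differs when it is depleted. Nothing in the labels says that the replicates came from separate cultures, so p-values measure only the spread between these samples, which may be technical.

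Ribosomal proteins assemble with ribosomal RNA in the nucleolus, and the finished subunits contain nearly all of them in equal number. Their genes are among the most strongly transcribed of a growing cell. Most of their mRNAs begin with a C followed by a run of pyrimidines, the 5′ terminal oligopyrimidine (TOP) tract, through which the mTOR pathway and the RNA-binding protein LARP1 control their translation and stability. Many of the genes carry small nucleolar RNAs in their introns, and several ribosomal proteins that are not built into subunits bind the ubiquitin ligase MDM2.

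Library totals ran from 54572365 to 69764836 counts, of which 2391991 to 2968583 belonged to the ribosomal protein genes. Values are given as CPM, counts divided by the size of the library and scaled by edgeR's TMM factors (a trimmed mean of log ratios between libraries), and log2 fold changes are siSON over siControl. SON itself had 295, 313 and 284 CPM in the siControl libraries and 68.0, 69.96 and 65.0 CPM in the siSON libraries. Of the markers of differentiated retinal pigment epithelium, TYR and TTR had no counts in any library and RPE65 and RLBP1 were near 0, while BEST1 (8.13 to 12.46 CPM, group means of siControl and siSON) and MITF (21.7 to 31.1 CPM) were detected and called higher and PMEL (2.06 to 0.20 CPM) and SERPINF1 (0.877 to 0.36 CPM) were called lower. Of the markers chosen for a cultured epithelial or mesenchymal-like line, KRT8, KRT18, VIM, CDH2 and CAV1 had at least 208 CPM in every library. COL1A2, from the same list, had only 2.20 CPM in siControl and 1.35 CPM in siSON (group means) and was called lower. KRT18 rose 2.79-fold, KRT8 and CDH2 were called higher, and CAV1 fell from 656 to 471 CPM. CD3E and HBB had no counts. Other blood, endothelial, epithelial and liver markers stood below 2 CPM in every library. Replicate 1 of each group stood apart from replicates 2 and 3. The chi-square per degree of freedom between replicates was 18.5 to 24.7 for pairs that include replicate 1, against 7.21 and 6.77 for replicates 2 and 3 of siControl and siSON. In siSON replicate 1 the ribosomal protein genes summed to 51150 CPM, above the 47409 and 48546 CPM of siSON replicates 2 and 3, and this library had the highest of the 3 siSON values for 70 of the 77 genes. The siControl libraries summed to 38938, 37623 and 39607 CPM.

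After SON knockdown 62 of the 77 ribosomal protein mRNAs rose, 3 fell and 12 did not pass the test, a split that came to 23 higher and 23 lower under cyclic loess normalization, where 36.4% and 33.9% of all genes tested were called. The test was edgeR's quasi-likelihood test over all genes with Benjamini-Hochberg adjustment, at an adjusted p under 0.05, and all 77 genes passed its filter on low counts. Of all 16591 genes tested, 71.7% were called, 35.2% higher and 36.5% lower, so the share of ribosomal protein genes called (84.4%) is to be read against that background. The median log2 fold change of the 77 genes was 0.40 (quartiles 0.22 and 0.52), where that of all genes tested was -0.03. Other mRNAs of similar abundance also had a positive median: the 2110 other genes with a mean of at least 100 CPM, a level chosen after the values were seen, had a median of 0.36, with 65.2% called higher and 20.6% called lower. In 68 of the 77 genes the groups did not overlap, siSON lying above in 65 and below in 3, beside 75.1% of all genes tested (36.9% above, 38.2% below). The changes were small: 11 of the genes rose by at least 1.5-fold and 0 changed by 2-fold in either direction. Leaving out siSON replicate 1 gave 62 higher and 3 lower, with a median of 0.38 (34% and 34.9% of all genes tested). In bulk RNA, fewer cells and less RNA per cell cannot be told apart, and the counts give each mRNA's share of the library, not its amount per cell.

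**Figure D1:**
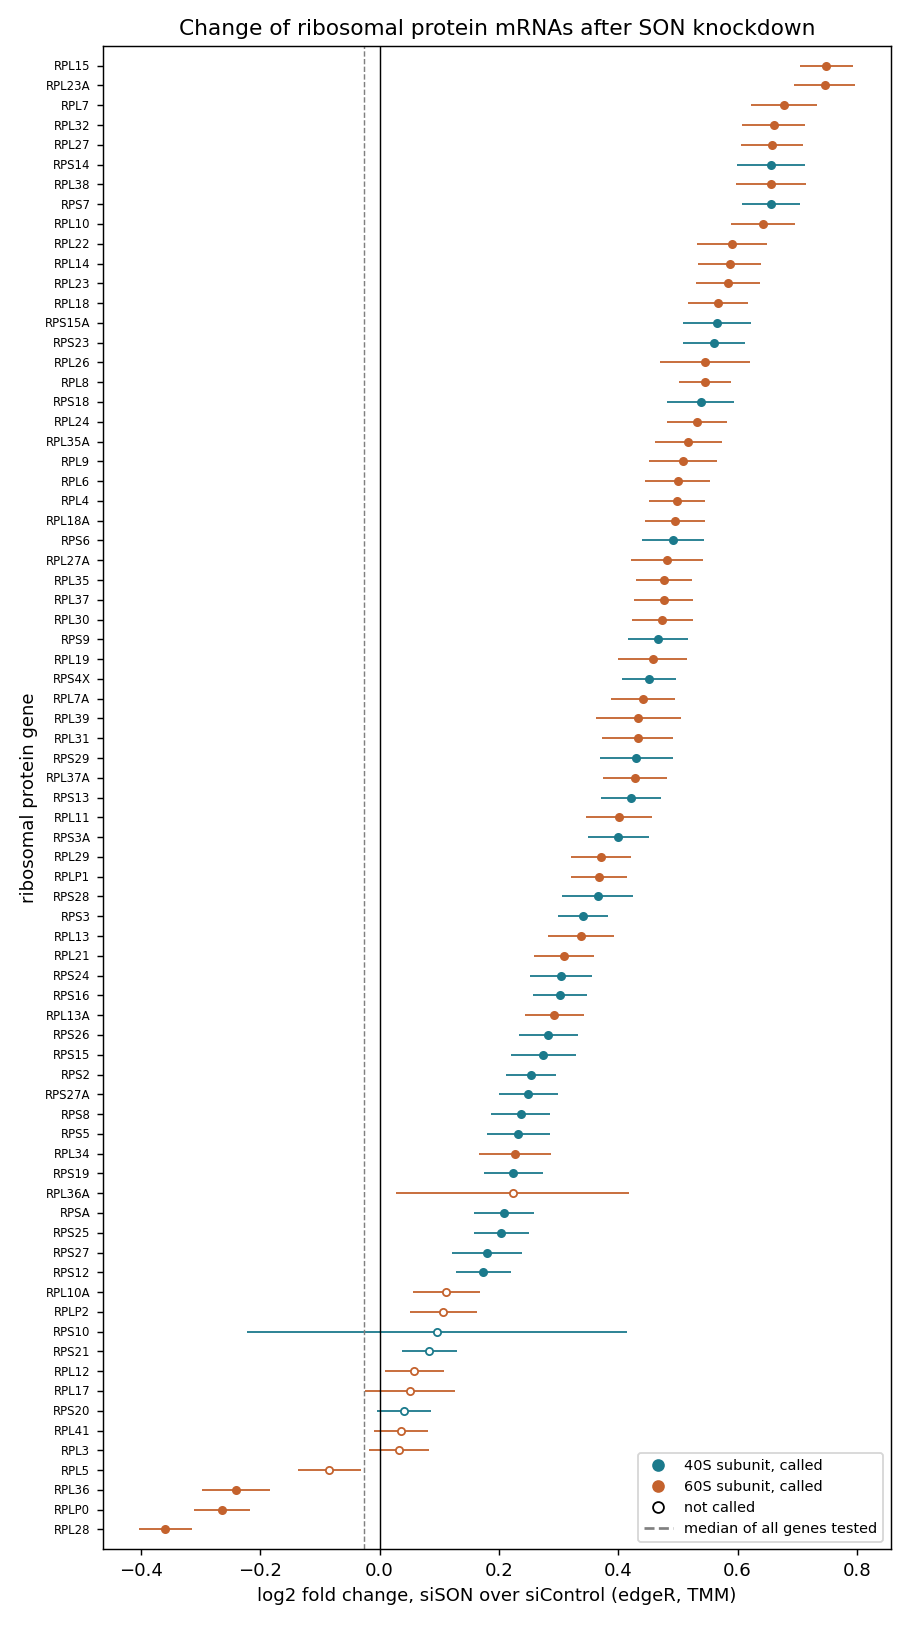
Log2 fold change of siSON over siControl (x axis, edgeR with TMM scaling) for 75 of the 77 ribosomal protein genes (y axis), with bars of 1 standard error, colored by subunit. Filled points had an adjusted p under 0.05; 61 of those shown lie right of 0 and 3 (RPL28, RPLP0, RPL36) left of it, and under cyclic loess normalization the called genes of all 77 split into 23 higher and 23 lower. The dashed line is the median of all genes tested, -0.03.

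The 3 genes that fell have a TOP tract at their RefSeq start by the search given below. The genes that rose include some where the search found a tract and some where it did not. The lines below show the 15 bases before and the 15 bases from the annotated start of transcription. They cover the 3 genes that fell and 2 of the genes that rose most and carry a tract (RPS14 and RPL38). RPL15, RPS7 and RPL3, where the search found none, follow. Sequences and positions are from RefSeq (GRCh38.p14), read along the gene's strand, with the tract in capitals. A tract was taken as a C at the start followed only by C or T, at least 5 letters in all, searched on the gene's own strand alone and at the annotated start alone.
RPL28 (chr19:55385917-55385946, plus strand): tcgcccctcgccttcCTCTTTCCgtctcag
RPLP0 (chr12:120201097-120201126, minus strand): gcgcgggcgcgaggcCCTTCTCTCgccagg
RPL36 (chr19:5690280-5690309, plus strand): ccgcgcggcgccagcCCTTCCgccacggcc
RPS14 (chr5:150449725-150449754, minus strand): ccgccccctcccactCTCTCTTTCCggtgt
RPL38 (chr17:74203663-74203692, plus strand): aacggaagtctcgttCTTTTTCgtcctttt
RPL15 (chr3:23916530-23916559, plus strand): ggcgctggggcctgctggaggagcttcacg
RPS7 (chr2:3575245-3575274, plus strand): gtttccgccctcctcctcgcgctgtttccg
RPL3 (chr22:39319609-39319638, minus strand): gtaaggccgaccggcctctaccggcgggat
The tract is 8 letters long in RPL28, 9 in RPLP0, 6 in RPL36, 10 in RPS14 and 7 in RPL38. Of the exon bases of RPL38 57.8% lie opposite an antisense gene, and the strand setting of the counting is not given. RPL3 and RPS7 start with runs of 4 and 3 such letters, under the cut of 5, and count here as having no tract. RefSeq start windows were held for 62 of the 77 genes, and 42 of them (67.7%) have a tract, against 4.04% of the 27305 windows of all genes. The median log2 fold change was 0.37 for the 42 genes with a tract and 0.44 for the 20 without. Log2 fold changes ran from -0.36 to 0.66 with a tract and from 0.03 to 0.75 without. Of the genes with a tract 33 rose and 3 fell, and of those without 17 rose and 0 fell, beside 35.2% and 36.5% of all genes tested; the difference between the sets was not tested. A RefSeq start that differs from the one used in these cells would hide a tract, so genes counted as without one may still carry it.

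The 3 mRNAs that fell all encode proteins of the large subunit. RPL28, a protein of the large subunit that has no bacterial counterpart, had 594, 616 and 613 CPM in siControl and 465, 471 and 485 CPM in siSON. Every siSON library lay below every siControl library, the mean fell from 608 ± 11.97 to 474 ± 10.2 CPM (n = 3 each, ± SD), and the log2 fold change was -0.36 (adjusted p 2.27e-05 in edgeR, SE 0.044). RPLP0, the base of the ribosomal stalk, had 2109, 2045 and 2191 CPM in siControl and 1734, 1736 and 1814 CPM in siSON. Its groups did not overlap either, and its log2 fold change was -0.26 (adjusted p 0.000354 in edgeR, SE 0.047). RPLP0 was the most counted of the 77 genes in siControl, with 5.46% of their counts, and held 3.60% in siSON, below the 4.35% of RPS2. RPL36, a small protein of the large subunit, had 318, 281 and 305 CPM in siControl and 266, 248 and 250.2 CPM in siSON, with the lowest siControl library still above the highest siSON library. Its log2 fold change was -0.24 (adjusted p 0.00289 in edgeR, SE 0.057), and leaving out each library in turn gave adjusted p-values of at most 0.0215 in edgeR. RPL28, RPLP0 and RPL36 were called lower under each of the 6 scalings tried.

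Of the 6 largest rises, 5 belong to the large subunit. RPL15, which is needed for processing of the large subunit's ribosomal RNA, had 694, 692 and 699 CPM in siControl and 1206, 1146 and 1151 CPM in siSON. The controls lay within a few CPM of each other and all siSON libraries were well above them, with a log2 fold change of 0.75 (adjusted p 6.1e-08 in edgeR, SE 0.044). RPL23A, which sits at the exit of the peptide tunnel, had 366, 344 and 344 CPM in siControl and 617, 575 and 575 CPM in siSON, and its log2 fold change was also 0.75 (adjusted p 1.79e-07 in edgeR, SE 0.051). Processed pseudogenes named after RPL23A held 14.8% as many counts as the gene itself, and how reads that match both were counted is not given in the sources used here. RPL7, which lies beside the 5S ribosomal RNA, rose from 526 ± 25.8 to 842 ± 45.4 CPM (n = 3 each, ± SD), a log2 fold change of 0.68 (adjusted p 8.08e-07 in edgeR, SE 0.056). RPL32 rose from 383 ± 5.17 to 605 ± 36.3 CPM (n = 3 each, ± SD) and RPL27 from 359.7 ± 4.06 to 568 ± 33.4 CPM (n = 3 each, ± SD), both with a log2 fold change of 0.66. RPS14, the small subunit protein whose loss is tied to the anemia of the 5q minus syndrome, had 275, 268 and 289.5 CPM in siControl and 469, 416 and 427 CPM in siSON. Its siSON libraries were all above the controls, replicate 1 highest, and the log2 fold change was 0.66 (adjusted p 1.28e-06 in edgeR, SE 0.057). RPL15, RPL23A, RPL7, RPL32, RPL27 and RPS14 were called higher under all 6 scalings.

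**Figure D2:**
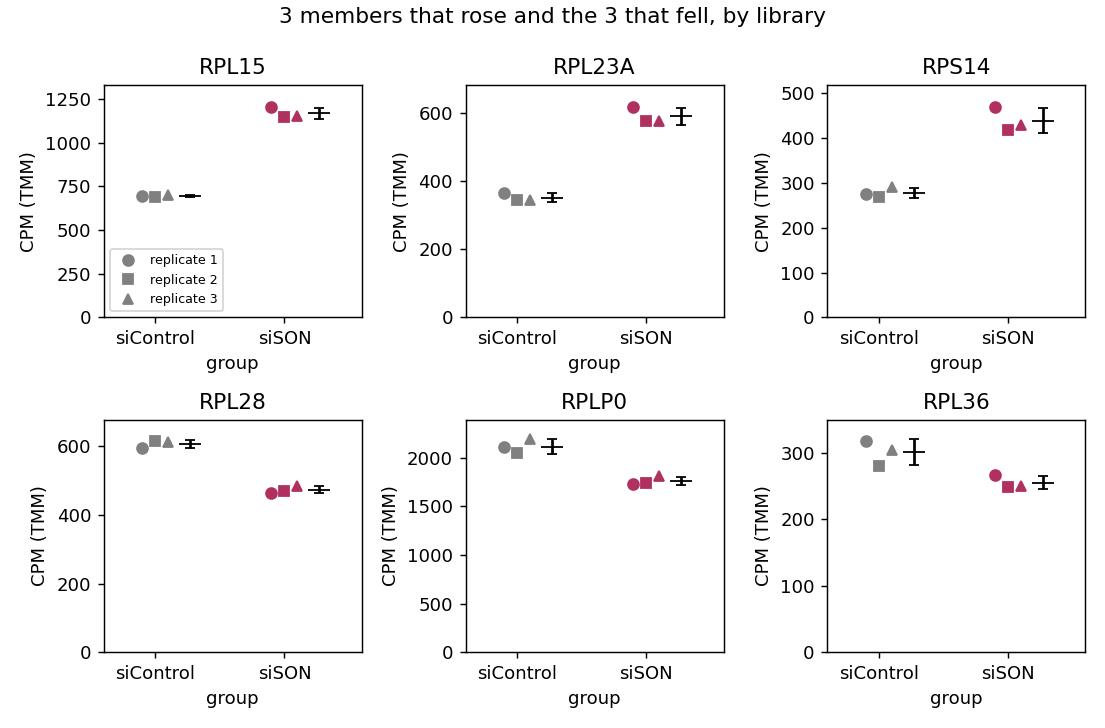
CPM (y axis, TMM scaled) in each library of the siControl and siSON groups (x axis) for 3 genes with large rises (top) and the 3 genes that fell (bottom), with mean and SD (n = 3) beside the points. RPL15 lies at 692 to 699 CPM in siControl and 1146 to 1206 CPM in siSON, and RPL28 at 594 to 616 and 465 to 485 CPM.

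The 12 genes that did not pass the test include 4 with differences near 0. RPL3, which lines the peptidyl transferase center, had 1093, 1018 and 1115 CPM in siControl and 1134, 1082 and 1083 CPM in siSON, and the groups overlapped (log2 fold change 0.03, SE 0.050). RPL41, the shortest of the ribosomal proteins, had 678, 641 and 656 CPM in siControl and 689, 658 and 678 CPM in siSON, a log2 fold change of 0.04 (SE 0.046). RPS20 had 699, 659 and 682 CPM in siControl and 706, 685 and 707 CPM in siSON, a log2 fold change of 0.04 (SE 0.045). RPL17, at 26.1 to 28.95 CPM in siControl and 26.4 to 29.9 CPM in siSON, is 1 of 5 genes whose counts are uncertain for reasons given below. RPL12 (log2 fold change 0.06), RPS21 (0.08) and RPL10A (0.11) also did not pass, with adjusted p-values of 0.314, 0.126 and 0.0909 in edgeR; under cyclic loess they were lower, at -0.36, -0.22 and -0.27. RPL5 and RPLP2, described next, and genes with uncertain counts, RPS10 and RPL36A among them, complete the 12. RPL3, RPL41 and RPS20 lay below the median of the 77 genes under every scaling, and against the summed counts of the 77 they were called lower, with log2 fold changes of -0.31, -0.30 and -0.30.

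The stalk of the large subunit, which recruits the translation factors, is made of RPLP0 with dimers of RPLP1 and RPLP2, and its 3 mRNAs moved apart. RPLP1 had 1234, 1209 and 1217 CPM in siControl and 1647, 1518 and 1557 CPM in siSON, a log2 fold change of 0.37 (adjusted p 2.78e-05 in edgeR, SE 0.047), although under cyclic loess it was -0.09 (adjusted p 0.0783, limma). RPLP2 had 393, 373 and 396 CPM in siControl and 446, 393 and 411 CPM in siSON, and its groups overlapped (log2 fold change 0.11, adjusted p 0.109 in edgeR, SE 0.056). Ratios of counts within a library do not depend on the scaling, and 6 such ratios were computed after the values were seen, with no test. Per 100 counts of RPLP0 there were 58.5, 59.1 and 55.5 counts of RPLP1 in siControl and 94.9, 87.4 and 85.8 in siSON, with no overlap between the groups. For RPLP2 the same ratio was 18.6, 18.2 and 18.1 in siControl and 25.7, 22.6 and 22.7 in siSON, also without overlap.

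RPL5 and RPL11 bind the 5S ribosomal RNA together and, as that complex, can also bind MDM2. RPL5 had 525, 506 and 542 CPM in siControl and 524, 474 and 486 CPM in siSON, with overlapping groups and a log2 fold change of -0.08 (adjusted p 0.171 in edgeR, SE 0.053). It was called lower under library size alone (-0.28), when scaled to the summed counts of the 77 genes (-0.43) and under cyclic loess (-0.48). RPL11 had 558, 535 and 548 CPM in siControl and 782, 695 and 691 CPM in siSON, all above the controls, a log2 fold change of 0.40 (adjusted p 5.73e-05 in edgeR, SE 0.056) that was -0.01 under cyclic loess. Per 100 counts of RPL11 there were 94.1, 94.6 and 98.8 counts of RPL5 in siControl and 67.0, 68.1 and 70.4 in siSON, so that every siSON library lay below every control. Among genes of the MDM2 pathway, CDKN1A, a cell cycle inhibitor, fell from 2095 ± 89.1 to 919 ± 46.0 CPM (n = 3 each, ± SD; log2 fold change -1.19, adjusted p 1.01e-08 in edgeR, SE 0.054). CDKN2A, whose product ARF inhibits MDM2, rose with a log2 fold change of 0.79, and MDM2 and MDM4 did not pass the test (0.11 and 0.18), although MDM2 was called lower under cyclic loess (-0.28).

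Other members with known roles lay between these extremes. RPS6, the ribosomal substrate of S6 kinase, had 861, 825 and 901 CPM in siControl and 1271, 1165 and 1203 CPM in siSON, a log2 fold change of 0.49 (adjusted p 6.32e-06 in edgeR, SE 0.052) that came to 0.05 (limma adjusted p 0.329) under cyclic loess. RPL10, which joins the large subunit late in its assembly, rose from 464 ± 12.4 to 724 ± 45.3 CPM (n = 3 each, ± SD), a log2 fold change of 0.64 (adjusted p 9.92e-07 in edgeR, SE 0.054), and was called higher under all 6 scalings. Of its exon bases 56.6% lie opposite DNASE1L1 and an antisense gene, and the strand setting of the counting is not given. RPSA, also known as a laminin receptor, rose with a log2 fold change of 0.21 (adjusted p 0.00318 in edgeR, SE 0.051). RPS27A, made as a fusion with ubiquitin, rose by 0.25 (adjusted p 0.000886 in edgeR, SE 0.050), and RPS19, mutated in Diamond-Blackfan anemia, by 0.22 (adjusted p 0.00179 in edgeR, SE 0.050). The direction of RPSA, RPS27A and RPS19 was the opposite under cyclic loess (-0.22, -0.14 and -0.17) and when scaled to the summed counts of the 77 genes (-0.13, -0.09 and -0.12).

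RPL22 and RPL26 and their paralogs moved in opposite directions. RPL22, a large subunit protein that can be lost without stopping translation, had 66.2, 65.4 and 65.7 CPM in siControl and 106, 94.6 and 96.3 CPM in siSON, a log2 fold change of 0.59 (adjusted p 3.99e-06 in edgeR, SE 0.059). Its paralog RPL22L1, which can take its place in the ribosome, had 34.4, 30.6 and 33.0 CPM in siControl and 11.4, 12.1 and 11.5 CPM in siSON, a log2 fold change of -1.49 (adjusted p 2.53e-08 in edgeR, SE 0.077). Neither pair of groups overlapped, and per 100 counts of RPL22 there were 51.9, 46.9 and 50.2 counts of RPL22L1 in siControl and 10.7, 12.8 and 11.97 in siSON. RPL26L1, the paralog of RPL26, had 32.3, 29.8 and 29.1 CPM in siControl and 15.5, 16.7 and 17.3 CPM in siSON (log2 fold change -0.88, adjusted p 1.41e-06 in edgeR, SE 0.078). RPL26 had 99.02, 98.4 and 105 CPM in siControl and 163, 131 and 147 CPM in siSON (log2 fold change 0.55, adjusted p 5.58e-05 in edgeR, SE 0.076), with the overlap given below. RPL26L1 is named after its values were seen. All 4 directions were the same under the 6 scalings, with a log2 fold change under cyclic loess of 0.38 for RPL22, -1.42 for RPL22L1, 0.28 for RPL26 and -0.85 for RPL26L1.

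**Figure D3:**
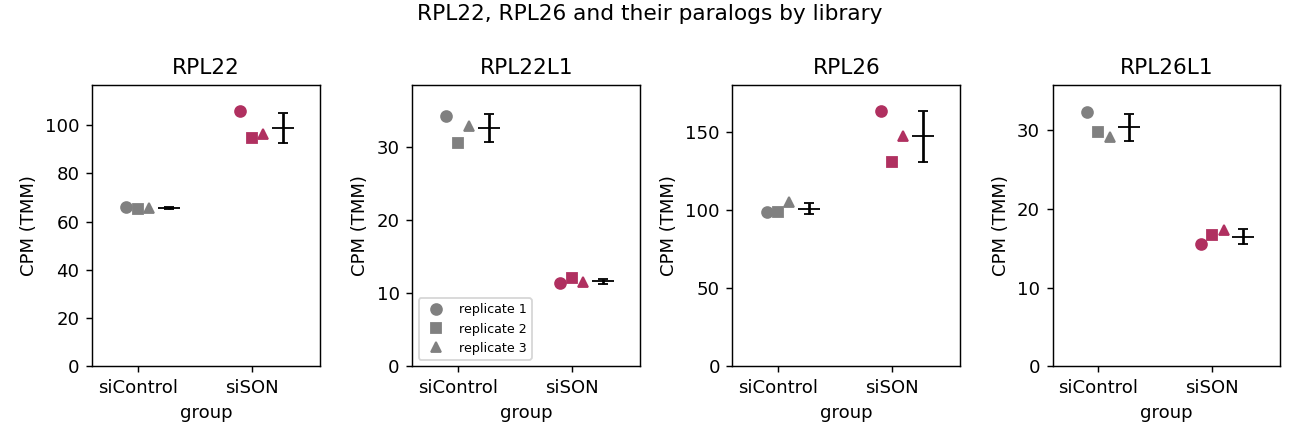
CPM (y axis, TMM scaled) of RPL22, RPL22L1, RPL26 and RPL26L1 in each library of the siControl and siSON groups (x axis), with mean and SD (n = 3) beside the points. RPL22 and RPL26 are higher in all siSON libraries, and RPL22L1 (30.6 to 34.4 against 11.4 to 12.1 CPM) and RPL26L1 are lower in all of them.

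Of the 11 paralogs, fusions and partners outside the naming rule, 9 had enough counts to be tested, 4 rose and 2 fell (35.2% and 36.5% of all genes tested), with a median of 0.15; under cyclic loess 2 rose and 3 fell, and with library size alone 3 rose and 3 fell. RPL3L and RPL10L had no counts in any library. FAU, a fusion of a ubiquitin-like protein with RPS30, had a log2 fold change of 0.23 (adjusted p 0.00134 in edgeR, SE 0.050), which turned to -0.06 under cyclic loess and -0.11 when scaled to the summed counts of the 77 genes. RPS27L, a paralog of RPS27, had 202, 198 and 206 CPM in siControl and 204, 202 and 196 CPM in siSON, and did not pass the test (log2 fold change -0.01, SE 0.047). RACK1, which binds the small subunit, and RPL7L1 each had a log2 fold change of 0.54.

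The ribosomal protein genes together took 4.13%, 4.06% and 4.24% of all counts in the siControl libraries and 4.73%, 4.48% and 4.52% in the siSON libraries. The share was higher in every siSON library, by 0.434 percentage points on average (4.14% ± 0.0919 against 4.58% ± 0.137, n = 3 each, ± SD; 2-sided exact permutation p = 0.1, the smallest that 3 against 3 can give). Without siSON replicate 1 the difference was 0.356 points. Of the 31 small subunit genes 27 rose and 0 fell, with a median log2 fold change of 0.28. Of the 46 large subunit genes 35 rose and 3 fell, with a median of 0.47. Beside them 35.2% of all genes tested rose and 36.5% fell, and 65.2% and 20.6% of other genes with a mean of at least 100 CPM. Under cyclic loess the counts were 6 and 13 for the small subunit and 17 and 10 for the large one. The shares were then 36.4% and 33.9% of all genes tested, and 44.1% and 36.1% of the other abundant genes. The genes of the small subunit held 36.7%, 37.1% and 37.1% of the ribosomal protein counts in siControl and 36.2%, 36.7% and 36.7% in siSON. That difference of -0.447 percentage points did not exceed the spread (2-sided exact permutation p = 0.2, with overlapping groups), and it was -0.263 points without siSON replicate 1. With the 3 most counted genes left out the groups no longer overlapped, at -0.948 points (exact permutation p = 0.1).

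**Figure D4:**
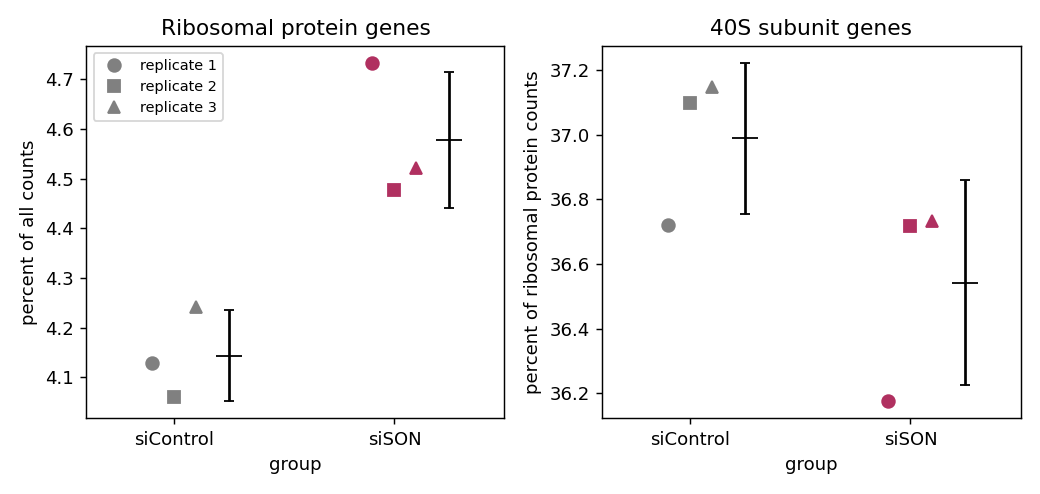
Left, percent of all counts taken by the 77 ribosomal protein genes in each library; right, percent of the ribosomal protein counts taken by the 31 small subunit genes, both with mean and SD (n = 3) for siControl and siSON (x axis). The y axes do not start at 0. The left panel shows siControl at 4.06% to 4.24% below siSON at 4.48% to 4.73%, and in the right panel the groups overlap.

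How many of the genes counted as higher depended on the scaling of the libraries, while their order changed little. With library size alone 46 were called higher and 9 lower and the median fell to 0.20, but the median of all genes tested then moved to -0.22, with 4441 of them higher (26.8%) and 7351 lower (44.3%) in place of 5834 and 6054. Cyclic loess, which removes differences that follow abundance, gave 23 higher and 23 lower and a median of 0.03, with a median over all genes of 0.04. Scaling to the summed counts of the ribosomal protein genes compares them with one another. It left 31 higher and 18 lower, with 3393 of all genes higher (20.5%) and 8302 lower (50%) and their median at -0.37. Under each of the 6 scalings 21 genes were called higher, 5 of the small and 16 of the large subunit, and RPL28, RPLP0 and RPL36 were called lower. Any 1 of these scalings called 20.5% to 36.4% of all genes tested higher and 33.9% to 50% lower. The share of all genes called under all 6 was not computed, so these counts have no background of their own. The distance between RPL15 and RPL28 was 1.11 on the log2 scale under 5 scalings, which hold it nearly fixed by construction, and 1.07 under cyclic loess. Per 100 counts of RPL28 there were 112 to 117 counts of RPL15 in siControl and 237 to 259 in siSON. The genes thus differed among themselves by more than their error: over the 72 genes without a large overlap the SD of the log2 fold change was 0.23, and the median standard error was 0.052. The log2 ratios of same-numbered libraries across these 72 genes had correlations of 0.965, 0.966 and 0.977 between the 3 pairs of libraries, which share no library.

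**Figure D5:**
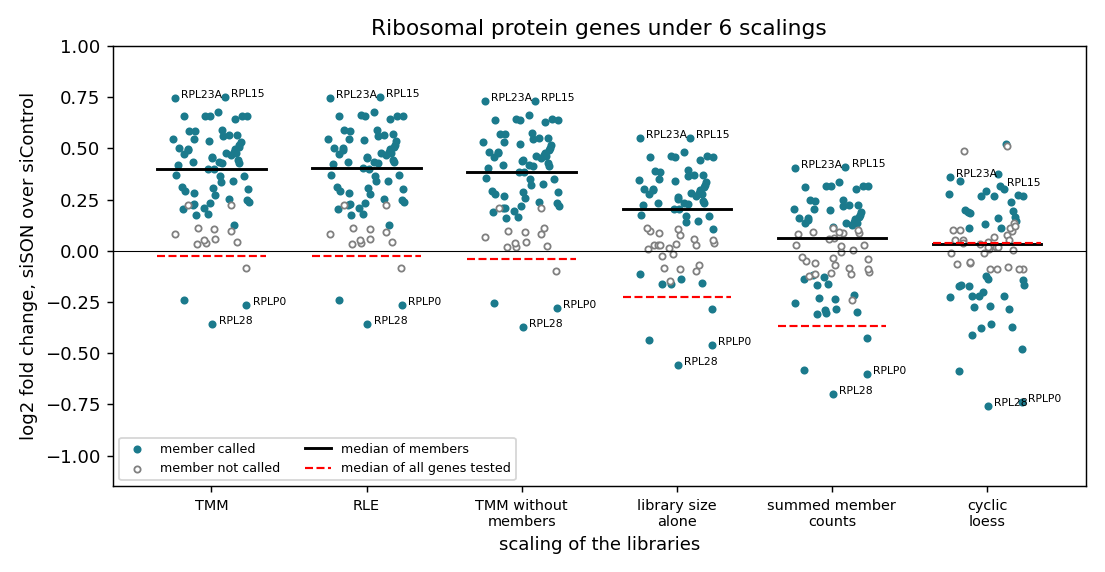
Log2 fold change of siSON over siControl (y axis) of the 77 ribosomal protein genes under 6 scalings of the libraries (x axis), filled where called, with the median of the 77 (solid) and of all genes tested (dashed). The median runs from 0.40 with TMM to 0.03 with cyclic loess, where called genes split into 23 higher and 23 lower, while RPL15 and RPL23A stay near the top and RPL28 and RPLP0 at the bottom.

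Levels between genes were compared as CPM per kilobase of coding sequence over the 72 genes. The median was 936.7 in siControl and 1165 in siSON. The lowest levels in siControl were those of RPL22 (171), RPS15A (260.1) and RPL34 (398), and the highest were those of RPS24 (2401), RPLP1 (3567) and RPL41 (8780), whose coding sequence is only 75 bases long. The 5 genes set aside share 59.0% to 91.0% of their exon bases with another gene on the same strand: RPS10, RPL36A and RPL17 with read-through genes, and RPL26 with a gene known by a clone name, are 4 of them. RPS10 had 0.645 to 1.15 CPM in siControl and 0.63 to 1.34 CPM in siSON, and RPL36A 4.64 to 4.83 and 3.66 to 6.89 CPM, far below most members. The genes they overlap were at or near 0 too, and how reads that match both genes were counted is not given in the sources used here, so these values are not levels of the mRNAs. Without the 5 genes 61 of 72 rose and 3 fell, with a median of 0.42, beside 35.2% and 36.5% of all genes tested. Pseudogenes named after the members hold 2.30% as many counts as the members, most of all beside their own gene for RPS10 (105.5%), RPS2 (18.4%), RPL23A (14.8%) and RPL13 (9.89%).

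Features of the genes were set beside the log2 fold changes of the 72 genes, as descriptions without a test. The GC content of the main transcript, from 42.1% to 63.6%, had a Pearson correlation of -0.28 and a Spearman correlation of -0.25 with the log2 fold change. In 3 sets of 24 genes of rising GC content the median log2 fold changes were 0.48, 0.37 and 0.32, and the 3 genes that fell were all in the set with the highest GC content. Other genes within the same GC ranges had medians of 0.14, 0.10 and -0.29. The log2 CPM in siControl had a Pearson correlation of -0.25 and a Spearman correlation of -0.22. Coding length (r = -0.03), exon number (r = -0.07) and the number of transcripts annotated for nonsense-mediated decay (r = -0.05) varied little with the change, and median intron length had r = 0.23. Of the 77 genes 28 host 60 small nucleolar RNAs. The 27 hosts among the 72 had a median of 0.34, with 22 higher and 0 lower. The 45 other genes had a median of 0.43, with 39 higher and 3 lower, so RPL28, RPLP0 and RPL36 are not hosts. Both counts stand beside 35.2% higher and 36.5% lower among all genes tested.

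Genes that make and regulate ribosomes were read from lists written with earlier results of these data known, and the counts are to be read beside the 35.2% of all genes tested that were called higher and the 36.5% called lower (26.8% and 44.3% with library size alone), or the 65.2% and 20.6% among other genes with a mean of at least 100 CPM. The median of all genes tested was -0.03. Of 20 genes of RNA polymerase I transcription 14 rose and 4 fell (median 0.38), and 9 rose and 5 fell with library size alone. UBTF, which opens the ribosomal DNA for transcription, fell from 115 ± 4.17 to 73.4 ± 6.02 CPM (n = 3 each, ± SD; log2 fold change -0.65, adjusted p 5.56e-06 in edgeR, SE 0.067), as did the subunit gene CD3EAP (-0.77). POLR1C (0.76) and TAF1A (0.90) rose most. Among 45 genes of the small subunit processome and 40S assembly 30 rose and 10 fell, with a median of 0.60. RRP7A, a processome protein, fell from 43.5 ± 1.43 to 8.93 ± 1.57 CPM (n = 3 each, ± SD; log2 fold change -2.29, adjusted p 1.89e-08 in edgeR, SE 0.114) and NOC4L by 1.42, whereas UTP20 (1.41) and the assembly factor LTV1 (1.23) rose. Of 61 genes of 60S assembly 40 rose and 13 fell, with a median of 0.54. PELP1 and WDR18, partners in the complex that acts on the large subunit precursor, fell together (-1.52 and -1.41), whereas NLE1, a substrate of the remodeling ATPase MDN1, rose from 14.1 ± 0.245 to 56.0 ± 2.11 CPM (n = 3 each, ± SD; log2 fold change 1.99, adjusted p 1.88e-09 in edgeR, SE 0.066) and PES1 by 1.18.

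Small nucleolar ribonucleoprotein and nucleolar genes numbered 22, of which 13 rose and 5 fell (median 0.39), beside the same 35.2% and 36.5% of all genes tested. Their largest falls were in assembly factors, ZNHIT6 (27.6 ± 0.734 to 6.76 ± 0.51 CPM, n = 3 each, ± SD; log2 fold change -2.03, adjusted p 6.63e-09 in edgeR, SE 0.085) and PIH1D1 (-1.75), and the largest rises were in DKC1, the pseudouridine synthase of these particles, and NUFIP1 (0.85 each). Of 28 other TOP mRNAs tested, which encode translation factors and related proteins, 22 rose and 4 fell with a median of 0.33, but 10 rose and 12 fell under cyclic loess (36.4% and 33.9% of all genes tested), and 14 rose and 5 fell with library size alone. EIF4B, an initiation factor, had 699, 622 and 673 CPM in siControl and 1494, 1295 and 1320.1 CPM in siSON (log2 fold change 1.04, adjusted p 9.75e-08 in edgeR, SE 0.066). IPO7, an importin, rose by 0.94, and the snoRNA host SNHG1 and LGALS1, a galectin, fell (-0.59 and -0.49). Among 20 regulators of TOP mRNA translation and growth 13 rose and 5 fell, with a median of 0.48. TSC2, an inhibitor of mTOR signaling, fell from 87.8 ± 1.25 to 27.4 ± 4.94 CPM (n = 3 each, ± SD; log2 fold change -1.68, adjusted p 2.09e-07 in edgeR, SE 0.111), and RPS6KB2, an S6 kinase, by 1.38. EIF4EBP2, a repressor of cap-dependent initiation, rose from 96.5 ± 5.84 to 315 ± 31.0 CPM (n = 3 each, ± SD; log2 fold change 1.70, adjusted p 9.72e-09 in edgeR, SE 0.076), and LARP4, which binds mRNA poly(A) tails, by 1.15.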

How the data were processed

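The deposited table holds unnormalized gene counts in whole numbers, a column for each library. The submitters' processing notes name cutadapt 1.16, STAR 2.5.2a, featureCounts 1.6.2, DESeq2 1.28.1 and the build hg38, with no role or order. Which annotation and strand setting were used, and how multi-mapping reads were treated, is not given in the sources used here. All 58735 identifiers matched GENCODE release 29 (GRCh38), from which exons, coding lengths, GC content and overlaps were taken. Groups and replicates follow the labels. In R 4.3.3, edgeR 4.0.16 kept genes with filterByExpr (minimum count 10), scaled by TMM and fitted a robust quasi-likelihood model with the group alone; a gene was called at a Benjamini-Hochberg adjusted p under 0.05 over all genes tested. Standard errors were derived from the fold change and its quasi-likelihood F statistic. The fit was tested on simulated counts.

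Alternatives were DESeq2 1.42.0, limma-voom (limma 3.58.1), RLE factors, library size alone, cyclic loess on log2 CPM with limma, TMM without the ribosomal protein genes, scaling by their summed counts, no filter, a mean count of at least 50, a replicate block and leaving out each library. Leaving out the 5 genes with over 50% same-strand exon overlap was added after the values were seen. Shares were compared by exact permutation over the 6 libraries. The members and lists were chosen with earlier results of these data known. Per-library values were given for the 6 largest rises and up to 6 largest falls among called members with non-overlapping groups, the 4 uncalled members nearest 0, members and paralogs picked for their known roles, and in each list, at a mean log2 CPM of 1 or more, the 2 largest rises and falls. The smallest level that 3 counts allow was 0.043 to 0.055 CPM, which covers only counting error, since no source used here names molecular identifiers. Some genes that the rules select are not reported here by name; the counts include them.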

Additional observations from a re-analysis of the deposited data

How the results depend on the processing

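The members together hold at least 2391991 counts per library, but RPS10 had only 32 to 86 counts per library and RPL36A 186 to 400. Other limits are the 3 libraries a group, the scaling, and reads shared with overlapping genes and pseudogenes. Which of these mattered most was not tested. DESeq2, limma-voom, RLE factors and the fit without a filter gave 65 members called, 62 higher and 3 lower. TMM without the members gave 64, and a mean count of at least 50 gave 64 (60 higher, 4 lower). Of all genes tested, DESeq2 called 51.6%, limma-voom 72%, RLE factors 71.4% and the fit without a filter 43.1%. TMM without the members called 71.4% of them, and a mean count of at least 50 called 77.8%.

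Cyclic loess gave 23 members higher and 23 lower with a median of 0.034, library size alone 9 lower and a median of 0.20, and scaling by summed member counts 31 higher, 18 lower and a median of 0.061; the last compares members with one another by construction, and for the others the cause was not tested. The small subunit share differed by -0.948 points without the 3 most counted members. Cyclic loess left 2 paralogs higher and 10 other TOP mRNAs higher and 12 lower; library size alone left 9 RNA polymerase I genes and 14 other TOP mRNAs higher. Leaving out each library in turn gave 58 to 63 members higher, 3 lower and medians of 0.37 to 0.44. Of all genes tested, these fits called 31.6% to 34% higher and 33.7% to 35.4% lower. In all of these fits 61 members were called, and RPS12, RPS27 and RPL34 were among those that were not. Share differences ran from 0.356 to 0.484 points for all members and from -0.581 to -0.263 for the small subunit.

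The cause was not tested for the single genes that turned. Under cyclic loess these were RPL3 (-0.41), RPL41 (-0.38), RPS20 (-0.37), RPLP1 (-0.090), RPLP2 (-0.27), RPL11 (-0.0090), RPSA (-0.22), RPS27A (-0.14), RPS19 (-0.17) and FAU (-0.064). Library size alone turned RPL3 (-0.16), RPL41 (-0.16), RPS20 (-0.16), RPL17 (-0.15) and RPLP2 (-0.091). A mean count of at least 50 turned RPL3 (-0.024), RPL41 (-0.021), RPS20 (-0.016) and RPL17 (-0.00592). Scaling by summed member counts turned RPL3 (-0.31), RPL41 (-0.30), RPS20 (-0.30), RPL17 (-0.29), RPLP2 (-0.23), RPSA (-0.13), RPS27A (-0.091), RPS19 (-0.12) and FAU (-0.11). Over the fits that leave out 1 library 4 of the genes picked by the naming rule ranged across 0: RPL3 from -0.025 to 0.057, RPL41 from -0.0022 to 0.066, RPS20 from -0.0011 to 0.068 and RPS27L from -0.044 to 0.019. Of the members outside that rule RPS10 did so too, from -0.19 to 0.34. For the other genes picked by the naming rule the direction held under every alternative run.

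Deviations of same-numbered libraries from their group means correlated at 0.194, 0.0461 and 0.118, above those of differently numbered libraries (-0.138 to 0.0286). The labels do not say whether the numbers pair the libraries, and these values do not settle it. The main fit used the group alone. With the replicate number as a block 67 members were called, 64 higher and 3 lower, and 12313 of all genes; 2 genes of the MDM2 pathway were higher, and the paired exact permutation p of both shares was 0.25, the smallest that 3 pairs can give.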
